A study of Mus musculus with 12 samples.

Results

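The costimulatory and checkpoint ligands are the surface molecules with which an antigen-presenting cell licenses or restrains a T cell, or spares or engulfs a neighbouring cell. They were followed here as 10 genes chosen by symbol, Cd40, Cd80, Cd86, Cd83, Icosl, Cd274, Pdcd1lg2, Havcr2, Cd47 and Sirpa, of 43280 genes in the deposited table, and all 10 were among the 12086 genes tested. Pdcd1lg2 passed the filter on low values only through its LPS libraries, since it had 12 to 27 reads in the M0 libraries. The direction of its LPS change was therefore fixed by the filter, and its place among the risers below is no support. The RNA came from macrophages that had been grown for 5 to 7 days from mouse marrow with M-CSF, the growth factor of this lineage (BMDM), and the mice were C57BL6 wild type (wt) or Treml4-/-, the latter lacking a receptor of the TREM family. Macrophages of both genotypes were left unstimulated (M0) or were given 100 ng/mL of LPS, the bacterial outer membrane lipid that TLR4 senses, for 8 h (M1-8 h) or 12 h (M1-12 h), PBS being the vehicle. Each of the 6 conditions had 2 biological replicates, which gave 12 libraries of 48008751 to 58500792 reads counted on genes, so that 1 read was worth 0.0171 to 0.0208 CPM, the reads of a gene scaled to a common library total. The labels do not say whether replicates came from separate mice, nor give their age, so the p-values measure the spread between these samples.

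An antigen-bearing cell gives a T cell its second signal mainly through the B7 molecules CD80 and CD86, which bind the activating receptor CD28 and, more tightly, the inhibitory receptor CTLA-4. CD40, a receptor of the TNF receptor family, receives the return signal from CD40 ligand on T cells, and ICOS ligand (Icosl) engages ICOS, a relative of CD28. PD-L1 (Cd274) and PD-L2 (Pdcd1lg2) bind PD-1 and restrain T cells, TIM-3 (Havcr2) is an inhibitory receptor of T cells and myeloid cells, and CD47 is the do-not-eat-me signal that phagocytes read with SIRPα (Sirpa). Resting macrophages are known to carry little of the B7 molecules and to raise them after TLR4 engagement, through NF-κB and through interferon made in response to LPS.

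Treml4 checked the genotype labels. It was counted at 8.35 and 6.57 CPM in the wt M0 replicates, 4.0 and 3.95 CPM at M1-8 h and 9.82 and 13.2 CPM at M1-12 h, and had 0 reads in each of the 6 Treml4-/- libraries, where 3 reads would be 0.0513 to 0.0625 CPM. All 8 macrophage markers, among them Csf1r and Adgre1 (listed as Emr1), were at 1 CPM or more in every library. Their summed level was 20712 to 27907 CPM at M0, 10295 to 13416 CPM after 8 h of LPS and 9996 to 11185 CPM after 12 h. The markers did not move together. From M0 to 8 h mean Lyz2 fell from 12236 to 4949 CPM and Csf1r from 6047 to 1162 CPM. Cd68 fell from 1661 to 804 CPM and Adgre1 from 1936 to 1669 CPM. In the same interval Fcgr1 rose from 63.0 to 1193 CPM and Mertk from 33.3 to 275 CPM. Itgam rose from 940 to 1166 CPM and Cd14 from 288 to 472 CPM. Of 7 T cell markers, 5 stayed under 1 CPM throughout, with Cd3e, Cd3d and Cd3g at 0.0204 CPM or less. The other two were Cd4, at 0.715 to 5.24 CPM, and Lck, which went from a mean of 0.374 to 17.3 and 4.19 CPM at M0, 8 h and 12 h, so that the summed T cell markers were 4.76 to 6.4 CPM at M0, 11.1 to 32.6 CPM at 8 h and 3.73 to 6.57 CPM at 12 h. Of 8 dendritic cell markers, 4 stayed under 1 CPM throughout (Flt3, Zbtb46, Cd209a and Kit). Over the same times Ccr7 went from a mean of 0.143 to 11.8 and 14.6 CPM, Xcr1 from 0 to 5.33 and 3.34 CPM and Clec9a from 0.112 to 1.83 and 1.96 CPM, while Itgax went from 108 to 49.7 and 43.0 CPM. The part of these markers in the LPS results was not tested.

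RefSeq promoter windows, from 250 bases before to 50 bases after the start, were given for 6 of the 10 genes on GRCm38.p6 (Icosl, Havcr2, Cd80, Cd47, Cd274 and Pdcd1lg2). Cd274 and Pdcd1lg2 are shown because they are neighbours on chromosome 19, 22823 bases apart, whose RNAs both rose after LPS, and Cd80 and Havcr2 because both hold the same motif while their RNAs moved in opposite directions. Capitals mark motif matches on either strand. The RefSeq start of Cd80 lies inside the longer GENCODE gene model used for its position below.
Cd274 (chr19:29367188-29367487, plus strand): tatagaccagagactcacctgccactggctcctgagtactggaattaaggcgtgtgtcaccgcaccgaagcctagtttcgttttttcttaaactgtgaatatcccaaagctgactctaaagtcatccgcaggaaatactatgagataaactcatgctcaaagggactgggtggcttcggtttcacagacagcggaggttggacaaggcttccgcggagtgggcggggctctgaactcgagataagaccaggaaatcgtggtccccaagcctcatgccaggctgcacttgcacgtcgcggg
Pdcd1lg2 (chr19:29410669-29410968, plus strand): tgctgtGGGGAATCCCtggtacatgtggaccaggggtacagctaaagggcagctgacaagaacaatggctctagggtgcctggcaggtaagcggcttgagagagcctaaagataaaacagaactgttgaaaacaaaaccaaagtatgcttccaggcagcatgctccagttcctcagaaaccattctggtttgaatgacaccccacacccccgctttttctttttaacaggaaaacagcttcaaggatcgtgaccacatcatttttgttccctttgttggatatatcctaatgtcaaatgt
Cd80 (chr16:38458683-38458982, plus strand): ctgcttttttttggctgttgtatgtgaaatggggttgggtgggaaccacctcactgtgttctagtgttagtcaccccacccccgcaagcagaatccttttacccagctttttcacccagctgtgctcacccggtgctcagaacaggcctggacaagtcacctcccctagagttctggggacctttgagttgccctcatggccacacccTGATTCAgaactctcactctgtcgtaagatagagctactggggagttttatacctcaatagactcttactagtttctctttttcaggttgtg
Havcr2 (chr11:46454681-46454980, plus strand): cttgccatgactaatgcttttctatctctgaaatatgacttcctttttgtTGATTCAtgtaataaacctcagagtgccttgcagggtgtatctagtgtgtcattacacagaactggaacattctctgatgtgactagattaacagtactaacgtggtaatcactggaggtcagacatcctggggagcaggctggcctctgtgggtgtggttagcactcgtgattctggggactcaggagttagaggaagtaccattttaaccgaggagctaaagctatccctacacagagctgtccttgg

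The windows were searched for 4 motifs, none of whose matches overlapped another. The NF-κB (κB) consensus was found in Pdcd1lg2 alone of the 6 genes, at position -244 from the start, and in 4.51% of the 32851 mouse promoter windows of this length. The AP-1 motif TGANTCA was found in Cd80 at position -42 and in Havcr2 at position -200, and in 7.81% of all windows. The interferon response motif GAAANNGAAA, present in 3.44% of all windows, and the STAT motif TTCNNNGAA, present in 8.30%, had no match in the 6 genes. A match here is a run of letters in a short window and is not a site of binding.

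After 8 h of LPS, 7 of the 10 genes rose and 3 fell, and each passed both thresholds for a call, an adjusted p under 0.05 and a change of 1.4-fold or more. Cd40 rose most, 482-fold in mean CPM, followed by Cd86 (138-fold), Pdcd1lg2 (135-fold), Cd274 (39.5-fold) and Cd83 (17.1-fold), while Cd80 rose 4.27-fold and Cd47 2.68-fold. Sirpa fell to 0.198, Icosl to 0.342 and Havcr2 to 0.535 of their M0 level. The same 7 genes were higher and the same 3 lower after 12 h. Pdcd1lg2 is counted among the 7 at both times, though its direction was fixed by the filter on low values. Of all 12086 genes tested, 17.1% were called higher and 59.8% lower at 8 h, and 16.3% higher and 60.3% lower at 12 h. The test was limma on log2(CPM + 1) over all 12 libraries with Benjamini-Hochberg adjustment over all genes, a scale on which the change of weak genes is understated, and the log2 fold changes below are on that scale, as the mean of both genotypes unless a genotype is named.

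CPM are shares of a library, and LPS moved the median log2 fold change of all genes to -0.72 at 8 h and -0.76 at 12 h. Relative to that median, the log2 fold change at 8 h was -1.61 for Sirpa, -0.73 for Icosl and -0.21 for Havcr2, and at 12 h it was -1.71 for Icosl, -0.39 for Havcr2 and -0.26 for Sirpa. Scaling the libraries by the median of ratios brought the median to -0.01 and 0.00 and the split of all calls from 2070 higher and 7225 lower to 3807 and 3693 at 8 h, and from 1965 and 7284 to 3993 and 3857 at 12 h. Under it all 7 risers stayed called at both times. The fall of Havcr2 was then not called at either time (log2 fold changes -0.15 and -0.32), and that of Sirpa was not called at 12 h (-0.16), while Icosl stayed called at both. In bulk RNA, fewer cells carrying a gene and less RNA per cell cannot be told apart.

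**Figure D1:**
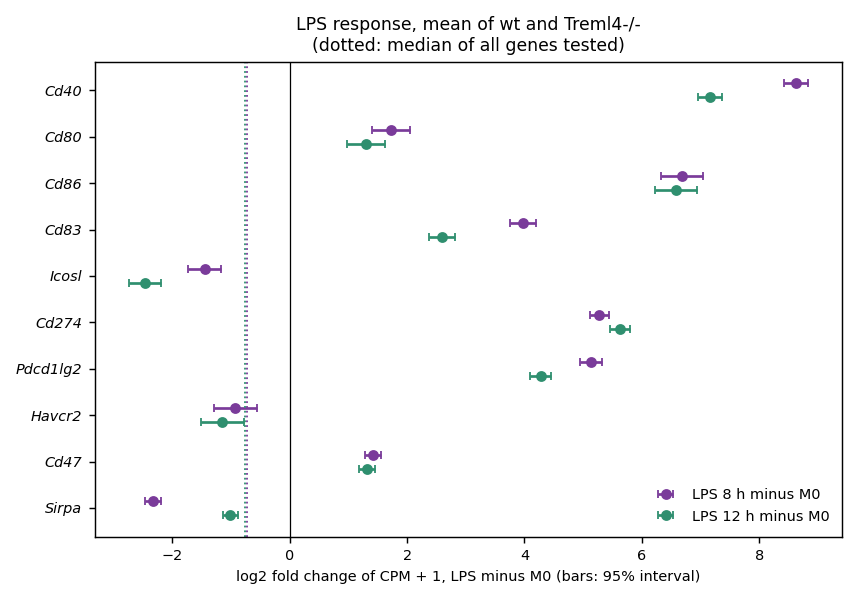
Log2 fold change of CPM + 1 of LPS over M0 for each of the 10 genes, as the mean of wt and Treml4-/- cells, at 8 h and 12 h, with 95% intervals as bars and the median of all genes tested as dotted lines. Cd40 (8.64 at 8 h), Cd86, Cd274 and Pdcd1lg2 lie far to the right of 0, and Icosl, Havcr2 and Sirpa lie to its left.

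Cd40 (ENSMUSG00000017652, chr2:165055627-165072948 on GRCm38, the build that mm10 names) encodes the receptor through which helper T cells activate macrophages. At M0 it was counted at 5.07 and 5.72 CPM in wt and 3.32 and 4.12 CPM in Treml4-/- libraries. After 8 h of LPS it reached 2325 and 2546 CPM in wt and 2074 and 1833 CPM in Treml4-/- libraries. At 12 h it stood at 737 and 953 CPM in wt and 704 and 760.2 CPM in Treml4-/- libraries. Every LPS library lay above every M0 library, and every 12 h library lay below every 8 h library. Such separation was common. Of all 12086 genes tested, 83.3% did not overlap between 8 h and M0, 86.5% between 12 h and M0 and 51.3% between 12 h and 8 h. Of the 10 genes it was 10, 10 and 6, so a lack of overlap between times, here and below, does not set a gene apart. The log2 fold change was 8.64 (SE 0.093, adjusted p = 2.48e-14, limma) at 8 h and 7.16 (SE 0.093) at 12 h against M0, and between 8 and 12 h it was -1.48 (adjusted p = 2.97e-07, limma).

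The B7 pair differed in scale. Cd80 (chr16:38455561-38496335) and Cd86 (chr16:36603869-36666081) lie on chromosome 16, 1789479 bases apart and on opposite strands. Cd86 was counted at M0 at 3.72 and 2.22 CPM in wt and 2.06 and 3.42 CPM in Treml4-/- libraries. It was at 358 and 475 CPM in wt and 308 and 436 CPM in Treml4-/- libraries after 8 h, and at 381 and 444 CPM in wt and 318 and 324 CPM in Treml4-/- libraries after 12 h. Its induction was held from 8 to 12 h, with overlapping libraries, and the log2 fold change between the times was -0.10 (95% interval -0.46 to 0.26).

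Cd80 was at 2.70 and 2.20 CPM in wt and 3.24 and 2.88 CPM in Treml4-/- libraries at M0, which is 112 to 159 reads. Its LPS levels were 11.7 and 17.2 CPM in wt and 8.79 and 9.39 CPM in Treml4-/- libraries at 8 h and 7.71 and 12.2 CPM in wt and 6.73 and 7.06 CPM in Treml4-/- libraries at 12 h. All 8 LPS libraries exceeded all 4 M0 libraries, and wt replicate 2 was the highest library at both LPS times. The log2 fold change was 1.73 (SE 0.15, adjusted p = 3.16e-07, limma) at 8 h against 6.69 (SE 0.16) for Cd86. Between 8 and 12 h the value for Cd80 was -0.43 (adjusted p = 0.0251, limma), which is under the 1.4-fold minimum, and Cd80 was called as lower without M1-8 h wt replicate 1 (-0.56) or without M1-12 h wt replicate 2 (-0.58). Per kb of exon, Cd86 RNA was a median of 1.11 times Cd80 RNA at M0 (0.643 to 1.39 over 4 libraries), 33.3 times at 8 h (28.0 to 47.0) and 47.1 times at 12 h (36.8 to 49.9).

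Cd83 (chr13:43784775-43803132) encodes a maturation marker of dendritic cells that keeps CD86 and MHC class II at the surface by opposing the ubiquitin ligase MARCH1. It was at 10.6 and 13.9 CPM in wt and 10.5 and 11.1 CPM in Treml4-/- libraries at M0 and rose to 225 and 224 CPM in wt and 174 and 166 CPM in Treml4-/- libraries at 8 h. By 12 h it was at 80.3 and 102 CPM in wt and 56.2 and 66.1 CPM in Treml4-/- libraries. Like Cd40, it peaked at 8 h and had lost more than its spread by 12 h, with no overlap between the times. Its log2 fold change was 3.98 (SE 0.10) at 8 h and 2.60 (SE 0.10) at 12 h against M0, and it fell by 1.38 from 8 to 12 h (adjusted p = 7.04e-07, limma).

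Icosl (chr10:78069302-78083913) was the 1 B7 family gene of the 10 that fell. It stood at 22.4 and 20.2 CPM in wt and 20.8 and 18.1 CPM in Treml4-/- libraries at M0, at 6.46 and 10.1 CPM in wt and 6.17 and 5.21 CPM in Treml4-/- libraries at 8 h and at 3.11 and 3.77 CPM in wt and 2.46 and 2.26 CPM in Treml4-/- libraries at 12 h. The 3 times did not overlap. The log2 fold change was -1.45 (SE 0.13, adjusted p = 3.93e-07, limma) at 8 h and -2.47 (SE 0.13) at 12 h against M0. Icosl thus went on falling between the LPS times, its log2 fold change there being -1.01 (adjusted p = 3.92e-05, limma).

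The genes of both PD-1 ligands rose. Cd274 (chr19:29367455-29388095), encoding PD-L1, was at 78.5 and 68.6 CPM in wt and 68.8 and 74.2 CPM in Treml4-/- libraries at M0. It rose to 2699 and 2561 CPM in wt and 2858 and 3326 CPM in Treml4-/- libraries at 8 h. At 12 h it was higher still, at 3848 and 3416 CPM in wt and 3741 and 3537 CPM in Treml4-/- libraries, and each 12 h library exceeded each 8 h library. Its log2 fold change was 5.28 (SE 0.075, adjusted p = 1.61e-13, limma) at 8 h and 5.63 (SE 0.075) at 12 h, and the step between them of 0.35 (adjusted p = 0.00186, limma) was under the 1.4-fold minimum. A gene on the other strand, AC119228.1, shares 511 bases, 14.1%, of the Cd274 exons, and whether counting used strand is not given in the sources used here.

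Pdcd1lg2 (chr19:29410919-29471161), encoding PD-L2, was weakly counted at M0 with 0.289 and 0.236 CPM in wt and 0.326 and 0.505 CPM in Treml4-/- libraries. It was at 49.0 and 47.9 CPM in wt and 43.1 and 43.4 CPM in Treml4-/- libraries at 8 h and at 28.6 and 25.3 CPM in wt and 21.0 and 24.9 CPM in Treml4-/- libraries at 12 h. All 8 h libraries lay above all 12 h libraries. Mean CPM rose 135-fold at 8 h, while the log2 fold change of CPM + 1 was 5.13 (SE 0.085), and between 8 and 12 h it fell by 0.86 (adjusted p = 7.68e-06, limma). Its neighbour Cd274 did not fall over the same interval. Per kb of exon, Cd274 RNA exceeded Pdcd1lg2 RNA by a median of 131 times at M0 (79.5 to 157, on the few Pdcd1lg2 reads there), 32.9 times at 8 h and 74.9 times at 12 h. The M0 range overlapped that of 12 h, and the LPS times did not overlap (29.0 to 41.5 and 72.9 to 96.4).

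Havcr2 (chr11:46454935-46481255), encoding TIM-3, was at 66.8 and 46.3 CPM in wt and 57.9 and 58.8 CPM in Treml4-/- libraries at M0. It was at 29.1 and 17.8 CPM in wt and 35.6 and 40.5 CPM in Treml4-/- libraries at 8 h and at 27.1 and 19.7 CPM in wt and 30.9 and 24.1 CPM in Treml4-/- libraries at 12 h. M0 libraries lay above all LPS libraries, the LPS times overlapped, and wt replicate 2 was the lowest library at all 3 times. The log2 fold change was -0.93 (SE 0.17, adjusted p = 0.000234, limma) at 8 h and -1.15 (SE 0.17) at 12 h, the call that median of ratios scaling removed, as given above.

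The 2 sides of the CD47 and SIRPα brake moved in opposite directions in CPM, though the call of the fall of Sirpa at 12 h depended on the scaling. Cd47 (chr16:49800533-49915010) was at 142 and 126 CPM in wt and 126 and 137 CPM in Treml4-/- libraries at M0. LPS brought it to 352 and 318 CPM in wt and 391 and 362 CPM in Treml4-/- libraries at 8 h and 323 and 321 CPM in wt and 348 and 340.4 CPM in Treml4-/- libraries at 12 h. The LPS times overlapped, and both lay above M0, with log2 fold changes of 1.41 (SE 0.063, adjusted p = 1.28e-09, limma) and 1.32 (SE 0.063).

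Sirpa (chr2:129592835-129632228), the receptor gene, was the most abundant of the 10 at M0, at 2366 and 2572 CPM in wt and 2285 and 2252 CPM in Treml4-/- libraries. It dropped to 475 and 463 CPM in wt and 485 and 450.0 CPM in Treml4-/- libraries at 8 h and had partly returned at 12 h, to 1184 and 1074 CPM in wt and 1203 and 1237 CPM in Treml4-/- libraries. The 3 times were fully separate. The log2 fold change was -2.33 (SE 0.06, adjusted p = 1.54e-11, limma) at 8 h, -1.01 (SE 0.06) at 12 h and 1.32 (adjusted p = 4.16e-08, limma) from 8 to 12 h. Median of ratios scaling removed the 12 h call against M0 (-0.16), as given above, so how far Sirpa had returned depends on the scaling. Per kb of exon, Sirpa RNA was a median of 22.2 times Cd47 RNA at M0, 1.66 times at 8 h (1.59 to 1.86) and 4.53 times at 12 h. Sirpa has the close relatives Sirpb1a, Sirpb1b and Sirpb1c, among which the counting could split shared reads, so its level is uncertain to that extent.

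**Figure D2:**
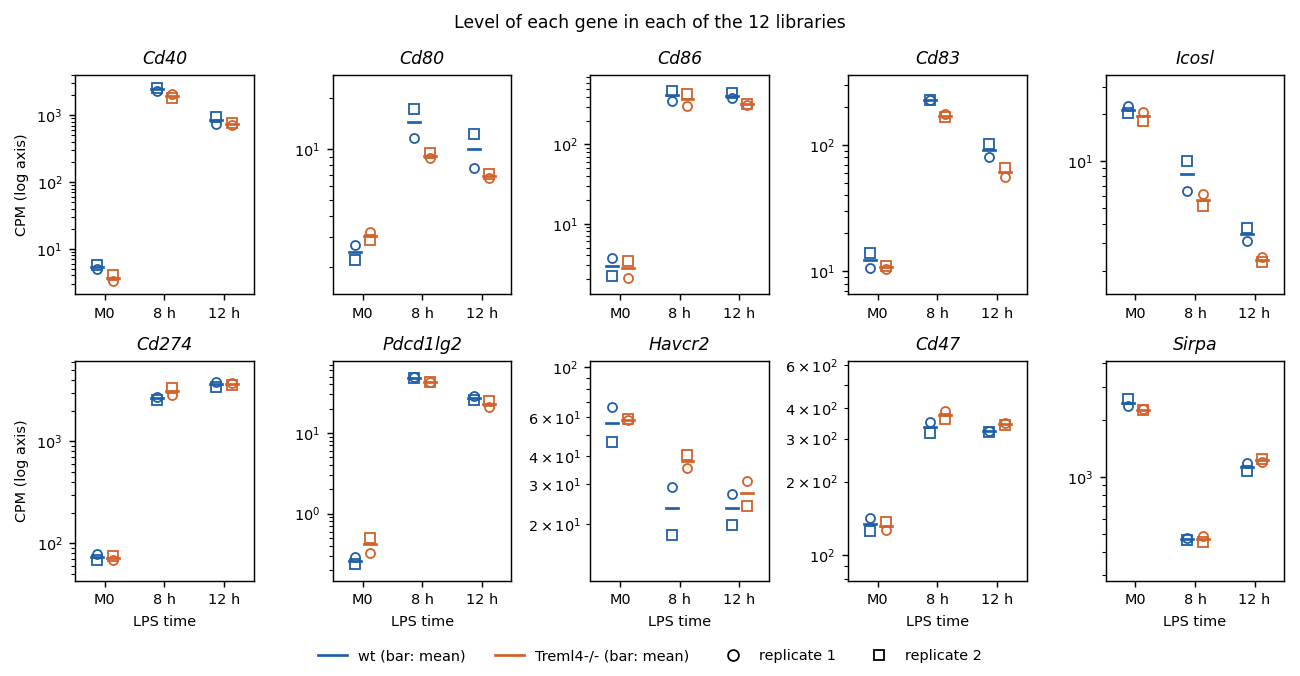
Level of each of the 10 genes in CPM on a log axis in each library, by LPS time, with wt and Treml4-/- in 2 colours, replicates 1 and 2 as circles and squares, and group means as bars. Cd40 and Cd83 peak at 8 h, Cd86 and Cd47 stay level from 8 to 12 h, Sirpa dips at 8 h (450.0 to 485 CPM) and Icosl falls at each step.

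From 8 to 12 h, 5 of the 10 genes were called. Cd40, Cd83, Pdcd1lg2 and Icosl fell and Sirpa rose, against 18.7% of all genes called lower and 13.5% called higher. The median log2 fold change was -0.32 over the 10 genes and -0.06 over all genes. Against M0, the median of the 10 genes was 2.85 at 8 h and 1.96 at 12 h. The summed level of the 10 genes was 2561 to 2857 CPM at M0, of which Sirpa held 87.7% to 90.0%. After LPS the sum was 6323 to 6680.1 CPM, and Cd274 held 38.3% to 49.9% of it at 8 h and 53.6% to 58.2% at 12 h. Cd40 held 27.5% to 38.1% at 8 h.

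Levels between genes were compared per kb of exon, taken from the GENCODE M21 gene models. The length merges all annotated exons of a gene and can differ from that of the transcript expressed. The ranges below, and those of the ratios per kb above, hold the spread of libraries and not this error in length. At M0 the order was led by Sirpa at 482 (458 to 524) CPM per kb, as the mean with the lowest and highest of 4 libraries. Cd47 at 21.1 (20.0 to 22.6), Havcr2 at 21.1 (17.0 to 24.6) and Cd274 at 20.0 (18.9 to 21.7) CPM per kb overlapped one another. Cd83 at 4.48 (4.09 to 5.41) and Icosl at 4.41 (3.93 to 4.85) CPM per kb also overlapped. Cd40 at 1.34 (0.975 to 1.68) overlapped Cd86 at 0.780 (0.562 to 1.02), which overlapped Cd80 at 0.744 (0.595 to 0.875) CPM per kb, and Pdcd1lg2 was last at 0.173 (0.120 to 0.258) CPM per kb.

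At 8 h Cd274 led at 789.9 (707 to 918) CPM per kb, overlapping Cd40 at 644 (538 to 748) CPM per kb. Cd86 at 108 (84.2 to 129.8) CPM per kb overlapped Sirpa at 95.4 (91.6 to 98.9) CPM per kb. Next came Cd83 at 76.7 (64.4 to 87.4), Cd47 at 56.7 (50.6 to 62.3), Pdcd1lg2 at 23.4 (22.0 to 25.0), Havcr2 at 11.3 (6.54 to 14.9), Cd80 at 3.18 (2.37 to 4.64) and Icosl at 1.51 (1.13 to 2.18) CPM per kb, each separate from its neighbour in the order. Cd83, though separate from Sirpa, overlapped Cd86. Both PD-L1 and Cd40 RNA thus stood above Cd86 RNA per length at this time, with no overlap.

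At 12 h Cd274 stood alone at 1004 (943 to 1063) CPM per kb. Sirpa at 239 (219 to 252) and Cd40 at 231 (207 to 279.7) CPM per kb overlapped. They were followed by Cd86 at 100.2 (86.8 to 121), Cd47 at 53.0 (51.1 to 55.4) and Cd83 at 29.6 (21.9 to 39.7) CPM per kb, each separate from the next. Pdcd1lg2 at 12.7 (10.7 to 14.6) and Havcr2 at 9.36 (7.24 to 11.4) CPM per kb overlapped, and Cd80 at 2.28 (1.82 to 3.30) and Icosl at 0.627 (0.488 to 0.816) CPM per kb closed the order.

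**Figure D3:**
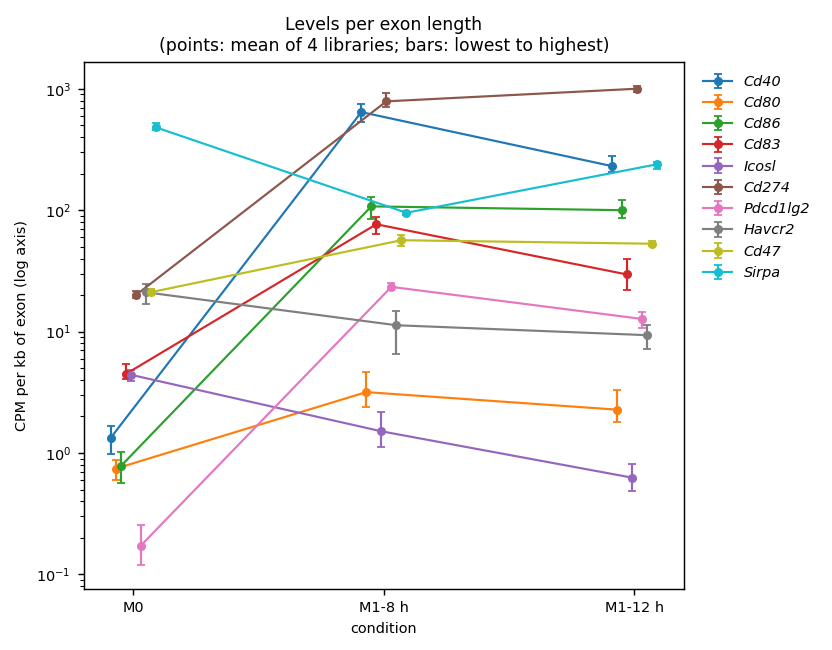
CPM per kb of exon on a log axis for each of the 10 genes by condition (M0, M1-8 h, M1-12 h), where points are the mean of 4 libraries (2 wt and 2 Treml4-/-) and bars from the lowest to the highest library. Sirpa leads at M0 and Cd274 leads after LPS, while Pdcd1lg2 leaves the last place at M0 for the seventh at both LPS times, where Icosl is last.

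The wt and Treml4-/- cells were compared to ask whether the receptor bears on these ligands. None of the 10 genes was called by limma in M0, M1-8 h or M1-12 h cells, nor over the mean of the 3 time points, and none with voom weights on the recovered reads. Called among all genes in either direction were 0.0993% in M0 cells, 0.091% after 8 h, 0.132% after 12 h and 0.414% over the mean. At an unadjusted p under 0.05 there were 1, 5 and 2 of the 10 genes at M0, 8 h and 12 h and 5 over the mean, beside 3.35%, 21.0%, 7.55% and 20.1% of all genes. SEs of the log2 differences were 0.085 to 0.24 at each time point. The mean of the 3 time points took all 12 libraries as independent. Replicate numbers recur at each time, and the labels do not say whether same-numbered libraries of a genotype share a source. If they do, the intervals and p-values over that mean, here and below, may be too narrow. The difference of each gene is wt minus Treml4-/-.

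Cd83 and Cd40 came closest to the threshold of adjusted p over the mean of the 3 time points. Both differences were under the 1.4-fold minimum, so neither could be called there at any p. For Cd83 the log2 difference was 0.37 (95% interval 0.19 to 0.55, adjusted p = 0.0623, limma), and wt was the higher in mean CPM at each time, by 1.13, 1.32 and 1.49 times at M0, 8 h and 12 h. Both wt libraries exceeded both Treml4-/- libraries at 8 h and 12 h, and the genotypes overlapped at M0. For Cd40 the log2 difference was 0.32 (95% interval 0.15 to 0.49, adjusted p = 0.0846, limma), with wt 1.45, 1.25 and 1.15 times Treml4-/- in mean CPM, and the genotypes overlapped at 12 h only. The largest single values were 0.44 for Cd40 at M0 (adjusted p = 0.873, limma) and 0.56 for Cd83 at 12 h (adjusted p = 0.237, limma).

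At 8 h the genes with the widest differences were Havcr2 with -0.71 (95% interval -1.23 to -0.19), Cd80 with 0.59 (0.14 to 1.04) and Icosl with 0.44 (0.05 to 0.83), at adjusted p = 0.173, 0.178 and 0.203 (limma). All 3 leaned on wt replicate 2, which at 8 h was highest for Cd80 and Icosl and lowest for Havcr2. Without that library the log2 differences were -0.37 for Havcr2, 0.33 for Cd80 and 0.16 for Icosl. The summed dendritic cell markers were also highest in this replicate, at 97.0 CPM at 8 h against 53.9 CPM in wt replicate 1 and 55.4 to 71.6 CPM in Treml4-/- libraries, and so were the summed T cell markers, at 32.6 CPM against 11.1 to 16 CPM, nearly all of it Lck, while the dendritic cell sum was mostly Itgax. Their part in the differences was not tested.

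Marker sums of other gene groups were set beside these values, without a test between genotypes. The summed macrophage markers at 8 h were 12017 to 13416 CPM in wt and 10295 to 11030.2 CPM in Treml4-/- libraries, and the summed neutrophil markers 53.8 to 57.5 and 67.8 to 88.0 CPM, and their part in the values of the 10 genes was not tested either. The genotypes did not overlap for 8 of the 10 genes at 8 h, 7 at 12 h and 4 at M0, beside 51.9%, 43.1% and 28.8% of all genes. The other 5 genes gave smaller differences at 8 h. Cd274 differed by 0.04, -0.23 and -0.0047 at M0, 8 h and 12 h, Cd47 by 0.02, -0.17 and -0.10, and Sirpa by 0.12, 0.01 and -0.11 on the log2 scale. For Sirpa over the mean of the times the 95% interval was -0.10 to 0.11, and for Cd274 it was -0.20 to 0.07. Pdcd1lg2 differed by -0.16, 0.16 and 0.22, and Cd86 by 0.09, 0.17 and 0.36, with replicates of Cd86 at M0 that differed more than the genotypes did.

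**Figure D4:**
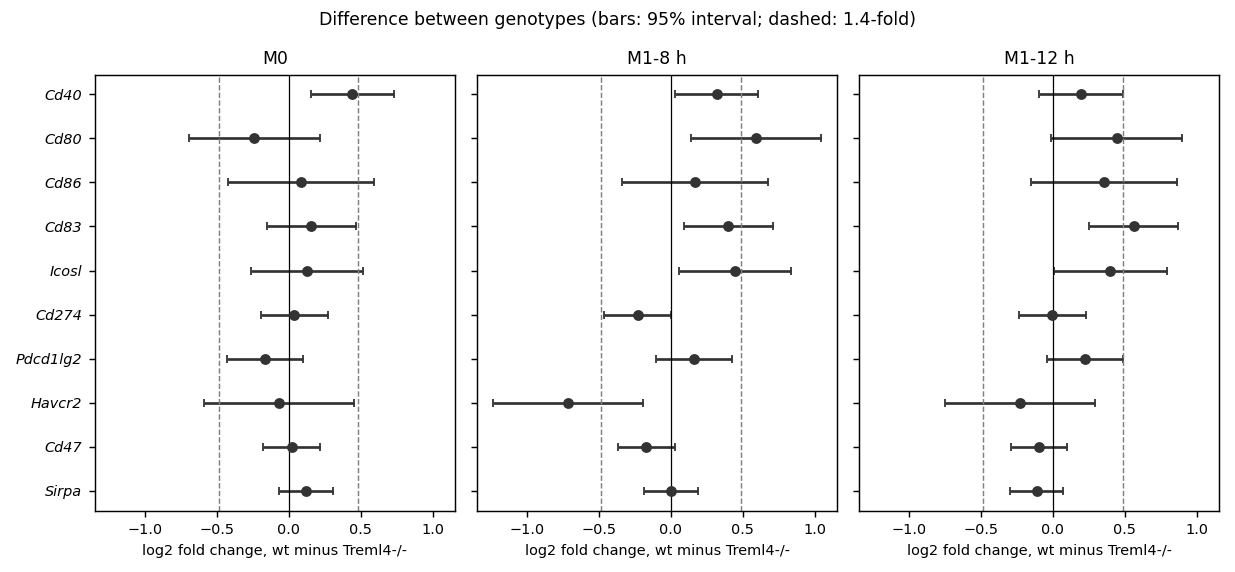
Log2 difference of CPM + 1, wt minus Treml4-/-, for each of the 10 genes in the 3 conditions M0, M1-8 h and M1-12 h, and 95% intervals as bars and dashed lines at 1.4-fold. The interval excludes 0 for 1 gene in M0 cells, 5 after 8 h and 2 after 12 h before adjustment over all genes, and none of the genes was called at any time.

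The difference between genotypes in the LPS response itself was not called for any of the 10 genes at 8 h or 12 h, where 1 gene each, 0.00827% of all tested, was called (limma), and voom called 0 of the 10 as well. At an unadjusted p under 0.05 there was 1 of the 10 at 8 h and 2 at 12 h, beside 6.67% and 3.82% of all genes. Cd80 had the widest value. Its log2 response at 8 h was 2.14 in wt and 1.31 in Treml4-/- cells, a difference of 0.83 (95% interval 0.19 to 1.47, adjusted p = 0.729, limma), and at 12 h the responses were 1.64 and 0.96 (difference 0.68, adjusted p = 0.999, limma). Without M1-12 h wt replicate 2 that difference was 0.38. The responses of Cd86 were 6.73 and 6.64 at 8 h, and those of Cd274 5.14 and 5.41.

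The other members of these families were read from lists written from the pathway, at 8 h of LPS. Of 16 further B7 family and related ligands, 8 were tested, of which 5 rose and 3 fell, against the 17.1% and 59.8% of all genes. Cd200, a ligand that calms myeloid cells, went from 1.72 to 57.5 CPM (log2 fold change 4.42) and Lgals9, encoding galectin-9, a proposed ligand of TIM-3, from 64.4 to 962 CPM (3.87). Cd276, encoding B7-H3, fell from 59.7 to 4.78 CPM (-3.39) and Vsir, encoding the checkpoint molecule VISTA and listed as 4632428N05Rik, from 679 to 103 CPM (-2.73). The list had a median log2 fold change of 0.74. After median of ratios scaling 5 rose and 2 fell, and the median of the list was 1.51.

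Of 7 costimulatory TNF ligands 4 were tested, and 4 were called higher. Tnfsf9, encoding 4-1BB ligand, went from 1.83 to 29.2 CPM (log2 fold change 3.41), Tnfsf15, encoding TL1A, from 0.132 to 11.6 CPM (3.44), Tnfsf14, encoding LIGHT, from 1.41 to 6.15 CPM (1.5) and Tnfsf4, encoding OX40 ligand, from 0.374 to 1.46 CPM (0.84). Tnfsf15 and Tnfsf4, like Btla, Lag3, Il6 and, in the TIM list, Timd4 below, had a mean under 1 CPM at M0 and passed the filter on low values through their LPS libraries, so their direction was fixed by the filter and their counts are no support. Of the 4 TNF ligands, 3 fell again from 8 to 12 h. Of 11 receptors that T cells use to read the ligands, 3 were tested, with Btla (2.82) and Lag3 (0.61) higher and Cd28 (-2.48) lower. Cd40lg, named after its values were seen, had 0 reads in all 12 libraries, so the ligand of CD40 was not detectable at this depth.

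Of the 5 tested genes of the TIM family and TIM-3 ligands, 2 rose and 3 fell. Beside Lgals9, Ceacam1 went from 35.9 to 5.16 CPM (-2.58), Hmgb1, which has near-identical copies in the genome and is uncertain for that reason, from 84.8 to 24.2 CPM (-1.79), and Bag6 from 259 to 126 CPM (-1.03), which was not called after median of ratios scaling. In the list of 14 tested genes around CD47, SIRPα and other inhibitory receptors of phagocytes, 3 rose and 4 fell, but 9 rose and 2 fell after median of ratios scaling, and its median log2 fold change moved from -0.08 to 0.71. Thbs1, encoding thrombospondin-1, a ligand of CD47, went from 13.9 to 545 CPM (5.2) and was higher again at 12 h (1831 CPM), and Pilra, an inhibitory receptor gene, from 4.42 to 41.4 CPM (2.97). Lrp1, the receptor for the eat-me signal calreticulin, fell from 5224 to 872 CPM (-2.59) and Cd24a from 20.0 to 2.07 CPM (-2.77).

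Among 16 tested regulators of these ligands, 9 rose and 4 fell at 8 h, or 11 and 2 after median of ratios scaling. Jak2, whose gene lies on the same chromosome as Cd274 and Pdcd1lg2, went from 24.6 to 559 CPM (4.42) and Irf1 from 92.8 to 1049 CPM (3.48), a kinase and a transcription factor that carry the interferon signal to Cd274. March1, the ubiquitin ligase that removes CD86 from the surface, rose as well, from 24.4 to 251 CPM (3.28), beside Cd86 and its protector Cd83. The 5 genes that check the LPS response all rose, Nos2 by 11.49, Il1b by 7.41, Il6 by 7.35 and Irg1 by 7.19 on the log2 scale. At 12 h against M0 the counts were 4 higher and 3 lower for the B7 list, 4 and 0 for the TNF ligands, 2 and 1 for the T cell receptors, 2 and 3 for the TIM list, 3 and 4 for the phagocyte list and 8 and 4 for the regulators. After median of ratios scaling these became 5 and 2 for the B7 list, 2 and 2 for the TIM list, 9 and 3 for the phagocyte list and 12 and 3 for the regulators, with the same counts for the TNF ligands and the T cell receptors. Between genotypes, limma called 0 genes of these 7 lists at M0, 8 h or 12 h, and at 8 h the counts at an unadjusted p under 0.05 were 2 of 8 for the B7 list, 1 of 4 for the TNF ligands, 1 of 3 for the T cell receptors, 3 of 5 for the TIM list, 2 of 14 for the phagocyte list, 6 of 16 for the regulators and 1 of 5 for the LPS check, beside 21.0% of all genes.

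The genes with the most similar profile were found by Pearson's r of log2(CPM + 1) over the 12 libraries among 12085 other genes, as a description. Since the libraries fall into 3 times, r here mostly restates a shared course over time. Nearest to Cd40 were Samhd1 (r = 0.999) and Themis2 (0.999), and nearest to Cd83 were Bcl2l14 (r = 0.997) and Atg16l1 (0.997). Cd274 was followed by Cmpk2 (r = 0.999) and Trim21 (0.999) and Pdcd1lg2 by Pttg1 (r = 0.999) and Ifi47 (0.999). For Cd86 they were Cp (r = 0.999) and Plekha4 (0.998), for Cd80 Gipc3 (r = 0.989) and Alpk2 (0.989) and for Cd47 Trim25 (r = 0.998) and Aida (0.996). Among the genes that fell, Icosl had Tcof1 (r = 0.994) and Aatf (0.992), Havcr2 had Atp8b4 (r = 0.991) and Ufl1 (0.978), and Sppl2b (r = 0.997) was among the nearest 2 of Sirpa.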

How the data were processed

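RNA of 12 BMDM libraries was sequenced as poly(A)-selected stranded paired-end libraries. Per the labels and the study's methods, reads were aligned with STAR to mm10 and counted with Subread. The annotation and the strand setting of the counting are not given in the sources used here. The authors deposited 1 table of log2 CPM, from which CPM and whole reads were recovered for every value (within 0.01 read). A value is therefore a share of its library, and 1 strongly rising set of genes lowers the share of the rest.

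The moderated linear model of limma 3.58.1 (R 4.3.3), with a mean trend and 1 mean per condition over 12 libraries, was fitted to log2(CPM + 1) of genes at 1 CPM or more in 2 or more libraries. Genes were called at a Benjamini-Hochberg adjusted p under 0.05 and at least 1.4-fold. Levels per kb used exon lengths of GENCODE M21 (GRCm38). The fit was tested on simulated data. The alternatives were another pseudocount, other filters, scalings and tests, replicate blocks and each library left out. All 10 genes are named, with Treml4, up to 4 called genes per list with the largest change at 8 h, and for each of the 10 the nearest 2 by correlation. A few genes that this rule names are not reported here. The 10 genes and the lists were chosen with earlier results of these data known. The planned test assumed CPM on a linear scale, and the deposited log2 values were converted for it.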

Additional observations from a re-analysis of the deposited data

How the results depend on the processing

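All 10 LPS calls at 8 h and at 12 h and the absence of a genotype call held under each alternative, except that median of ratios scaling removed the calls of Havcr2 at both times and of Sirpa at 12 h. Of 929 log2 fold changes of the 10 genes under another setting, 916 kept their direction and side of the threshold, 3 lost a call (those named), 2 gained one (Cd80 and Cd274 between 8 and 12 h, with no minimum fold change) and 8 uncalled genotype values changed sign. Under median of ratios scaling these were Cd274 at 12 h (0.083) and over the mean of the times (0.020), Cd47 over the mean (0.0046), and the genotype differences in LPS response of Cd40 at 8 h (0.011) and Cd274 at 12 h (0.0073). For Pdcd1lg2 over the mean they were -0.031 with a pseudocount of 0.1 CPM, -0.077 with voom and -0.076 on the deposited log2 CPM. The cause was not tested. With libraries left out in turn, 1046 of 1080 values held and 32 uncalled ones changed sign. Their ranges were -0.22 to 0.027 for Cd86 between 8 and 12 h. For wt minus Treml4-/- at M0 they were -0.19 to 0.36 for Cd86, -0.027 to 0.34 for Cd83, -0.0581 to 0.13 for Cd274, -0.33 to 0.19 for Havcr2 and -0.0654 to 0.11 for Cd47. At 8 h they were -0.0798 to 0.42 for Cd86 and -0.0497 to 0.0597 for Sirpa, at 12 h -0.091 to 0.081 for Cd274 and over the mean -0.019 to 0.0275 for Sirpa. For the genotype difference in LPS response they were -0.19 to 0.36 for Cd86 at 8 h, and -0.0039 to 0.55 for Cd86, -0.14 to 0.053 for Cd274 and -0.42 to 0.10 for Havcr2 at 12 h. The number of the 10 genes called between 8 and 12 h ran from 5 to 6. Counts over all genes moved more. The 12 genotype calls at M0 became 6 in a fit of the libraries compared alone and 219 without wt M0 replicate 1. The 11 calls at 8 h became 5 in such a fit, 7 with no filter and 598 without Treml4-/- M1-8 h replicate 1. The 16 calls at 12 h became 7 with no filter, 10 with voom and 79 without wt M1-12 h replicate 1. The 50 calls over the mean became 78 with a pseudocount of 0.1 CPM, 119 with no minimum fold, 31 at 5 CPM or more and 17 with no filter, and the 3885 between 8 and 12 h became 7291 with no minimum fold. When replicate numbers entered as a replicate block, 0 of the 10 genes were called between genotypes and 10 after LPS at 8 h, so the block changed no call of theirs. Correlations of same-numbered deviations ran from -0.27 to 0.46, so the shared numbers were not taken as a pairing. A replicate block of its own for each of the 3 time points, M0 included, was an alternative added after the data were seen. With it, 10 of all 12086 genes were called between genotypes at 12 h. With the numbers crossed at M0, 421 of all genes were called at 8 h and 75 over the mean. A fit of the compared libraries alone could not test Pdcd1lg2 at M0, and was not run for the mean, where it is the same fit.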
